A study of Mus musculus with 3 samples.

Results

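10 genes that mark segments of the brain's vessel tree were followed in endothelial cells of the mouse hippocampus, among the 21750 features of the count table. Gkn3, Bmx, Sema3g, Efnb2 and Vegfc stand for arteries, Car4 for capillaries, and Slc38a5, Lrg1, Vwf and Nr2f2 for veins. The genes were chosen by name, with their co-detection in endothelial cells and their level in other cell types already in view, so both are given here as a description and without a test. The cells were 1521 of 6672 barcodes. Each had at least 500 genes, at most 15% mitochondrial counts, at least 5 UMIs (unique molecular identifiers, one for each captured RNA molecule) of Cldn5, Flt1, Pecam1 and Ly6c1 together, at most 10 UMIs of C1qa, C1qb and C1qc together, and at most 20 UMIs of Ttr.

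The library was made from the pooled hippocampi of 5 Aldh1l1CreERT2;Rosa26-LSL-tdTomato mice. In these animals tamoxifen switches on a Cre recombinase driven by the astrocyte promoter Aldh1l1, and Cre in turn opens a tdTomato reporter. A Cre-dependent virus, AAV-TIGRi-Hopx, which represses the homeodomain gene Hopx and carries EGFP, had been injected into the hippocampus, and cells were sorted for tdTomato and EGFP 3 weeks after tamoxifen. All cells share that genotype, virus and drug, a library without the virus was not analysed here, and the 2 chromatin samples from cultured astrocytes (anti-Flag and IgG) were not analysed here either. With 1 library there is no replicate check: intervals are 95% intervals for counting error within this library, barcodes are not replicates, and the mice cannot be told apart.

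Endothelial cells take on an arterial, capillary or venous identity along the path of the blood. Ephrin-B2, the product of Efnb2, is a membrane ligand of arterial endothelium and binds the venous receptor made by Ephb4, Notch signalling favours the arterial state, and the nuclear receptor COUP-TFII, made by Nr2f2, favours the venous state. In the brain these identities grade into each other, and the capillaries between carry most of the transporters of the blood-brain barrier.

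Promoter sequences are shown for 3 arterial genes, the capillary gene and 2 venous genes, so that start regions of each vessel kind can be set side by side. RefSeq windows on GRCm38.p6, from 250 bases before to 50 bases after the start site, matched 9 of the 10 genes; Vwf is named without one. Each window is written 5′ to 3′ on the strand of its gene. Capitals mark matches, on either strand, to 4 motifs. The first is TGGGAA, the core of the site of RBPJ, which is the DNA-binding partner of Notch. The second is the TATA box, TATAAA. Another is CAGGAAG, a site of the ETS factor family, many of which act in endothelium. The last is the nuclear receptor site AGGTCA, the kind of element that COUP-TFII reads.
Gkn3, chr6:87388886-87389185, minus strand: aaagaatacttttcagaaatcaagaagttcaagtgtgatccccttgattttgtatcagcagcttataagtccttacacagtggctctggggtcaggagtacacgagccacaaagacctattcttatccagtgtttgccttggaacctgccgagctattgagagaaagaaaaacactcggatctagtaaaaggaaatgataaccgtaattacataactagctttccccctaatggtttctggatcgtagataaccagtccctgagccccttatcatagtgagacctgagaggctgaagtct
Bmx, chrX:164258144-164258443, minus strand: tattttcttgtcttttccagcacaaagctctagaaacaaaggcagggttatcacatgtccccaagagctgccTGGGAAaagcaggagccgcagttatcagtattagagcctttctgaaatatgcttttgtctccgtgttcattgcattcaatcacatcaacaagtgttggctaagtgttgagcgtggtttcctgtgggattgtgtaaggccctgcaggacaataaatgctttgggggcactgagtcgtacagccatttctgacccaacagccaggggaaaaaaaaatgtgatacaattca
Sema3g, chr14:31217623-31217922, plus strand: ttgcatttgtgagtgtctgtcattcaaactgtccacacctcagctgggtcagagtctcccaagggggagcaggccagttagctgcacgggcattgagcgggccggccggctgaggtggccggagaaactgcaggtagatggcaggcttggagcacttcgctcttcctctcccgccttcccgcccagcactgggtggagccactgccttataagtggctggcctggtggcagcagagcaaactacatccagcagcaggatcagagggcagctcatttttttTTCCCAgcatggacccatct
Car4, chr11:84957504-84957803, plus strand: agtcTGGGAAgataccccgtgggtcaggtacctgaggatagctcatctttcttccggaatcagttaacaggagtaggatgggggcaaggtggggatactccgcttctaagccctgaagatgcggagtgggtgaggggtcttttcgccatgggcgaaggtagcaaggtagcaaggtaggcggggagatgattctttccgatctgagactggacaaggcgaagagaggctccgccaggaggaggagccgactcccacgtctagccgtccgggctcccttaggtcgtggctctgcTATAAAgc
Slc38a5, chrX:8271131-8271430, plus strand: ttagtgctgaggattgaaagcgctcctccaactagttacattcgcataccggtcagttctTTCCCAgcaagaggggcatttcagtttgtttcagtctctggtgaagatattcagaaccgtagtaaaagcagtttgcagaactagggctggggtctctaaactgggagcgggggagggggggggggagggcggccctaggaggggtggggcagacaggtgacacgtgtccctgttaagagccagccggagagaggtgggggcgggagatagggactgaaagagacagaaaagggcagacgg
Lrg1, chr17:56121897-56122196, minus strand: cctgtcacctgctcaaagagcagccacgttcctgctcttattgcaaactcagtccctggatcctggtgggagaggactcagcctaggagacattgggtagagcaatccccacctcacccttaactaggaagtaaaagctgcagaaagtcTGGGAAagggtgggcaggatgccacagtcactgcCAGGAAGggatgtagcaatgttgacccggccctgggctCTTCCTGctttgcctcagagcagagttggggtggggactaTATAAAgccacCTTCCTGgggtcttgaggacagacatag

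The RBPJ letters were in 25.6% of all 32851 windows of that length, the TATA letters in 13.6%, the ETS letters in 13.3% and the nuclear receptor letters in 16.3%. Among the 9 genes, RBPJ letters were in 5 (Bmx, Sema3g, Car4, Slc38a5 and Lrg1), so they were in windows of all 3 vessel kinds. TATA letters were in Efnb2, Car4 and Lrg1, with their first base at -30, 42 and 11 from the start site in that order. In the 2 windows shown, those of Car4 and Lrg1, they thus lay after the start site. ETS letters were in Lrg1, with 3 matches, and the nuclear receptor letters were in 0 of the 9. No base was shared by 2 matches. A match is a string of letters in a window, not a bound site.

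The barcodes carried the marks of brain endothelium: Cdh5, the endothelial cadherin, which the choice of cells did not use, had a UMI in 78.4% of them, and Slco1a4, a transporter of the blood-brain barrier, in 96.9%. Their depth was a median of 3550 UMIs, from 683 to 20983. The reporters of the sort were rare: EGFP was seen in 3 barcodes (0.197%) and tdTomato in 39 (2.56%). Clustering placed 1433 of the 1521 in endothelial clusters, 43 (2.83%) in an unnamed cluster led by Or51e1 and the smooth muscle myosin Myh11, and 33 (2.17%) among called doublets. Marker lists of other cells gave 236 CPM (UMIs of the genes per 1000000 UMIs of the class) for 8 pericyte genes, 83.7 CPM for 6 smooth muscle genes, 304 CPM for 8 microglial genes, 287 CPM for 7 choroid plexus genes, 845 CPM for 5 B cell genes and 1555 CPM for 8 oligodendrocyte genes, and 0 genes of these 6 lists were at 0. In B cells the B cell list stood at 1181 CPM, so it set those cells little apart from endothelial barcodes. The microglial list stood at 20016 CPM in microglia. In their own classes the choroid plexus list stood at 216884 CPM and the oligodendrocyte list at 46515 CPM. For pericytes and smooth muscle no such level is given. The part of these markers in the results was not tested.

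Outside endothelium the 10 genes divided into 7 held largely by it and 3 shared with other cells. Endothelial barcodes held 93.1% of all Slc38a5 UMIs, 91.9% of Car4, 88.7% of Sema3g, 88.3% of Gkn3, 88.1% of Lrg1, 86.8% of Vwf and 81.5% of Bmx. They held 54.7% of Vegfc, 49.3% of Efnb2 and 28.2% of Nr2f2. The other barcodes include called doublets and barcodes of endothelial clusters outside the choice, as well as other cell types. Of the 231 Car4 UMIs in other barcodes within the gene and mitochondrial limits, microglia held 13, the most of any class. The level in endothelial barcodes over that in all others was above 1, interval included, for 10 of 10 genes, where 32% of 15392 genes with at least 10 UMIs were. That ratio ran from 2.26 (2.04 to 2.50) for Nr2f2 to 76.7 (51.8 to 118) for Slc38a5.

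Gkn3, a secreted gastrokine known in mouse brain as an arterial mark, stood at 115 CPM (107 to 124) in endothelial barcodes. Astrocytes, the next class, had 7.91 CPM, from 5 UMIs in 4 barcodes. Sema3g, a secreted guidance semaphorin, stood at 94.6 CPM, and Bmx, a non-receptor tyrosine kinase, at 59.7 CPM. Ependymal cells, which line the ventricles, had the next level of Bmx among the named classes, 3.75 CPM. For Sema3g that class was border macrophages, with 2.48 CPM from 3 UMIs in 2 barcodes.

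Efnb2 was lower and broader, with 48.6 CPM (43.3 to 54.4) in endothelial barcodes, 28.0 CPM in ependymal cells and 7.13 CPM in microglia. The endothelial level was 1.73 times the ependymal one (1.39 to 2.17). Vegfc, a growth factor of the VEGF family, stood at 21.4 CPM in endothelial barcodes and at 24.9 CPM in fibroblasts, a ratio of 1.16 in favour of fibroblasts whose interval (0.459 to 2.47) spans 1. Both genes thus had UMIs in classes other than endothelium.

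Car4, a carbonic anhydrase anchored on the luminal face of capillaries, stood at 436 CPM in endothelial barcodes. In any other named class in which it had a UMI, it stood at 1.66 CPM at most (border macrophages, 2 UMIs). Slc38a5, a transporter of glutamine and other neutral amino acids, stood at 58.2 CPM in endothelial barcodes. Its next level was 0.751 CPM in ependymal cells, from 3 UMIs. Lrg1, a secreted glycoprotein that acts on TGF-β signalling, stood at 39.3 CPM, against 1.93 CPM in monocytes or neutrophils (3 UMIs in 2 barcodes). Both venous genes had 0 UMIs in 2564 microglia, where 3 UMIs would make 0.177 CPM and the interval reaches 0.217 CPM. The ratio of the endothelial to the microglial level had a lower interval limit of 266 for Slc38a5 and 179 for Lrg1.

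Vwf, the clotting glycoprotein stored in endothelial granules, stood at 337 CPM in endothelial barcodes. T or NK cells had 9.38 CPM, from 2 UMIs in 1 barcode, and microglia 2.48 CPM. Nr2f2 was the exception among the venous genes. Its level was 407 CPM (314 to 518) in the 33 neurons, 110 CPM in fibroblasts, 96.9 CPM in choroid plexus, 90.8 CPM in ependymal cells, 84.0 CPM (76.9 to 91.5) in endothelial barcodes and 68.1 CPM in astrocytes. From fibroblasts down to astrocytes, neighbours in that order did not differ beyond counting error, but the endothelial level was below that of choroid plexus, 0.866 times as high (0.771 to 0.974). Endothelium was the highest named class for 8 of the 10 genes, Vegfc and Nr2f2 being the others.

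**Figure D1:**
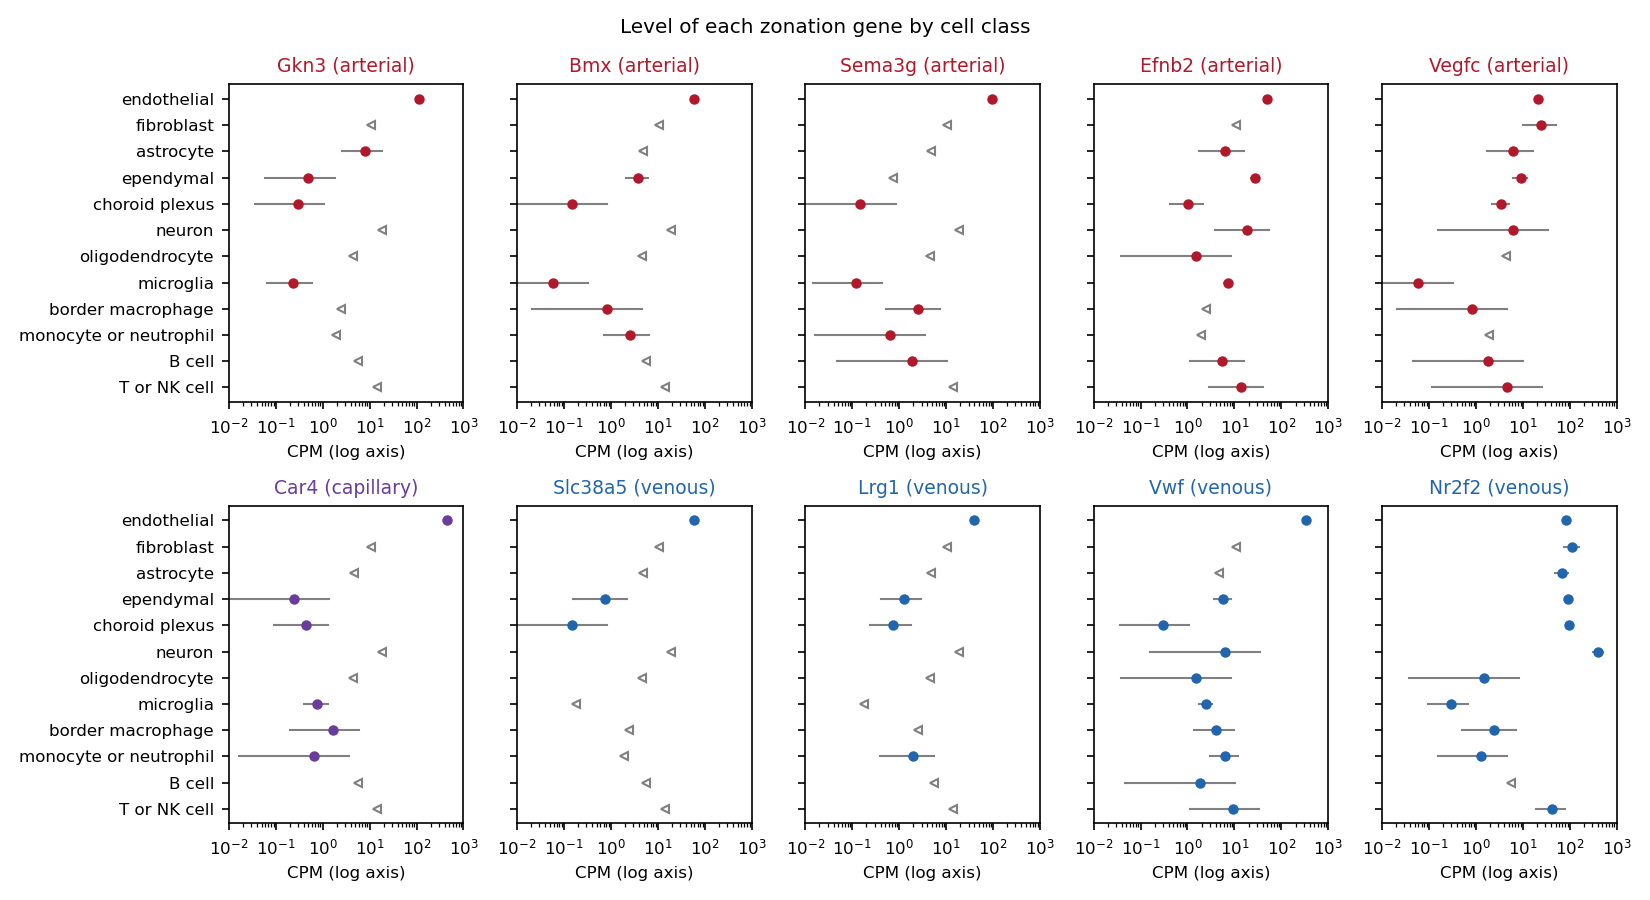
Level of each gene in CPM (log axis) in endothelial barcodes and 11 other classes of the library, with exact Poisson intervals as lines; open triangles mark classes with 0 UMIs, drawn at the level 3 UMIs would give. Endothelial barcodes lie far to the right for Gkn3, Bmx, Sema3g, Car4, Slc38a5, Lrg1 and Vwf, while Nr2f2 reaches 407 CPM in neurons against 84.0 CPM in endothelial barcodes.

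At the edge of the cell choice, 58 barcodes with 5 to 9 UMIs of the 4 endothelial genes had a UMI of any member in 69.0% of cases, and 140 barcodes just outside, with 1 to 4, in 36.4%. With 6 to 10 C1q UMIs the share was 11 of 14 barcodes, and with 11 to 15 it was 6 of 8. No barcode lay within 5 UMIs of the Ttr limit on either side.

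Within endothelium the members differed in how their molecules were spread over cells. Gkn3 had 717 UMIs in 198 barcodes, with up to 25 in one, and 23.2% of its positive barcodes held 5 or more. Efnb2 had 302 UMIs in 230 barcodes, with at most 4 in one, and 77.8% of its positive barcodes held a single UMI. Gkn3 was thus concentrated in few barcodes and Efnb2 spread thinly. Car4 (2713 UMIs, 827 barcodes) reached 22 UMIs in one barcode, Vwf (2095 UMIs, 794 barcodes) reached 40, and Lrg1 (244 UMIs, 96 barcodes) reached 24. Sema3g, Bmx, Vegfc, Slc38a5 and Nr2f2 reached between 4 and 12 UMIs in one barcode.

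To compare detection at equal depth, 1330 barcodes with at least 2000 UMIs were each thinned at random to 2000, which left out 191. The share with a UMI was 9.55% for Gkn3, 8.65% for Bmx, 14.5% for Sema3g, 8.72% for Efnb2 and 4.36% for Vegfc. It was 46.2% for Car4, 8.65% for Slc38a5, 3.98% for Lrg1, 39.8% for Vwf and 10.8% for Nr2f2. Car4 and Vwf were thus detected in many barcodes and the other 8 in few. Without thinning, Gkn3 was in 198 of 1521 barcodes, and the shares were 14.2%, 20.8%, 15.1% and 6.84% for the other arterial genes in that order, 54.4% for Car4, and 15.8%, 6.31%, 52.2% and 18.5% for the venous genes.

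As a reference for free RNA, microglia (median 6347.5 UMIs, against 3550 in endothelium) had a UMI after thinning in 0.0414% of 2416 barcodes for Gkn3, 0.0828% for Car4, 0.538% for Vwf and 1.32% for Efnb2. The endothelial shares of these genes were all above those. Of the members, Efnb2 had the largest share in microglia.

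Arterial genes were found in the same barcodes. Gkn3 and Sema3g were both present in 57 barcodes where the product of their shares gives 18.4, and Sema3g was in 44.9% of Gkn3-positive barcodes but in 11.3% of the others. The odds ratio, the odds of one gene given the other over its odds without it, was 6.37 (4.22 to 9.62). Bmx was with Sema3g in 50 barcodes (odds ratio 5.75, 3.74 to 8.83), Gkn3 with Bmx in 36 (5.62, 3.48 to 8.97), and Sema3g with Vegfc in 27 (5.79, 3.24 to 10.3). Of the 10 arterial pairs, 7 had an interval wholly above 1. That count was 9 with a second seed of the thinning, 10 at 4000 UMIs and without thinning, and 6 at 1000 UMIs. Over all genes seen in at least 1% of barcodes, 3.52% of 98270 pairs with a member lay above 1 and 2.81% below. Since co-detection chose the genes, nothing is read from that difference.

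The arterial pairs that spanned 1 were pairs of Efnb2, and they differed between settings, which change the draw, the depth or the barcodes used. Its odds ratio was 2.15 (1.21 to 3.68) with Gkn3, 1.80 (0.953 to 3.22) with Bmx and 1.52 (0.892 to 2.50) with Sema3g. With Vegfc it shared 4 barcodes where 5.06 would be the product of their shares, an odds ratio of 0.767 (0.198 to 2.14). That last value turned direction: the mean over all possible thinnings was 1.26, at 4000 UMIs it was 2.42 (1.04 to 5.29) and without thinning 2.10 (1.27 to 3.38). With a second seed Efnb2 was above 1 with Bmx (2.14, 1.22 to 3.62) and with Sema3g (2.04, 1.25 to 3.24). Over the 10 arterial pairs, 263 joint detections stood against 108 from the shares, 2.43 times as many (2.15 to 2.75).

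Car4 was seen less often where arterial genes were present. Gkn3 and Car4 were together in 9 barcodes against 58.7 from their shares, and Car4 was in 7.09% of Gkn3-positive barcodes but in 50.4% of the others, an odds ratio of 0.0752 (0.0333 to 0.150). The odds ratio with Car4 was 0.0932 for Sema3g and 0.142 for Bmx. It was 0.516 for Efnb2 and 0.468 for Vegfc, and for 5 of 5 arterial genes the interval lay below 1. With any arterial gene present, 21.1% of 403 barcodes had Car4, against 57.2% of 927 without one (odds ratio 0.200, 0.151 to 0.265).

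Of the 20 pairs of an arterial with a venous gene, 7 lay wholly below 1, 0 above, and 13 spanned 1. Slc38a5 was with Gkn3 in 1 barcode, 0.0911 times the number the shares give (odds ratio 0.0759, 0.00189 to 0.440) and with Sema3g in 2 against 16.7 (0.0950, 0.0113 to 0.357). Nr2f2 was with Bmx in 3 against 12.5 (0.204, 0.0409 to 0.626) and with Sema3g in 7 against 20.9 (0.275, 0.107 to 0.595). Lrg1 was with Efnb2 in 0 barcodes against 4.62, an odds ratio of at most 0.734. The number of pairs below 1 was 10 with a second seed, 15 at 4000 UMIs, 3 at 1000 UMIs and 12 without thinning, where 1 pair lay above.

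For Vwf the outcome differed between settings. The setting of 4000 UMIs changes both the depth and the barcodes used, so their parts cannot be told apart. At 2000 UMIs it was in 40.2% of Gkn3-positive barcodes and in 39.8% of the others, and its interval spanned 1 with 5 of 5 arterial genes, from an odds ratio of 0.754 with Sema3g to 1.09 with Bmx. At 4000 UMIs Vwf was below 1 with 4 of the 5: Bmx (0.500, 0.309 to 0.806), Sema3g (0.635), Efnb2 (0.527) and Vegfc (0.483). A second seed put Efnb2 with Vwf below 1 (0.579), and without thinning Gkn3 with Vwf lay above 1 (1.41, 1.03 to 1.94). Any arterial gene was present in 25.3% of 668 barcodes with a venous gene and in 35.3% of 662 without (odds ratio 0.620, 0.485 to 0.790). With Vwf left out of the venous genes, a choice made after the values were seen, that odds ratio was 0.435. At a depth of 4000 UMIs, which 587 barcodes reach, it was 0.409 (0.281 to 0.594).

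Venous genes were also found together, with lower ratios than the arterial ones; the difference between the kinds was not tested. Lrg1 and Vwf shared 35 barcodes against 21.1 from the shares (odds ratio 3.07, 1.67 to 5.82), and Vwf was in 66.0% of Lrg1-positive barcodes. Slc38a5 was with Nr2f2 in 26 against 12.5 (2.71, 1.61 to 4.44) and with Vwf in 61 against 45.8 (1.80, 1.20 to 2.69). The other 3 of the 6 venous pairs spanned 1, with odds ratios of 2.26 for Slc38a5 with Lrg1, 1.98 for Lrg1 with Nr2f2 and 1.28 for Vwf with Nr2f2. With a second seed, at 4000 UMIs and without thinning, 6 of 6 venous pairs lay above 1. Lrg1 with Nr2f2 then stood at 3.49, 2.90 and 5.08 in that order, and its mean over all possible thinnings was 3.63. Over the 6 pairs, 206 joint detections stood against 147, a ratio of 1.40 (1.22 to 1.61), and the mean over all possible thinnings gave 1.54. For arterial pairs that mean was 2.58.

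Car4 sided with a part of the venous genes. It was in 70.4% of Slc38a5-positive barcodes and in 44.0% of the others (odds ratio 3.04, 1.98 to 4.75), and in 61.1% of Nr2f2-positive barcodes against 44.4% (1.96, 1.36 to 2.85). With Lrg1 (1.12) and Vwf (1.19) the interval spanned 1. With any venous gene, 53.0% of barcodes had Car4, against 39.4% without (odds ratio 1.73, 1.38 to 2.17). With Slc38a5 left out of the venous genes that odds ratio was 1.39 (1.11 to 1.74). Without thinning, the 45 pairs gave 21 above 1 and 17 below in place of 12 and 12. At 4000 UMIs they gave 18 and 20, at 1000 UMIs 12 and 7, and in none of these did a pair called on one side of 1 at 2000 UMIs lie on the other.

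**Figure D2:**
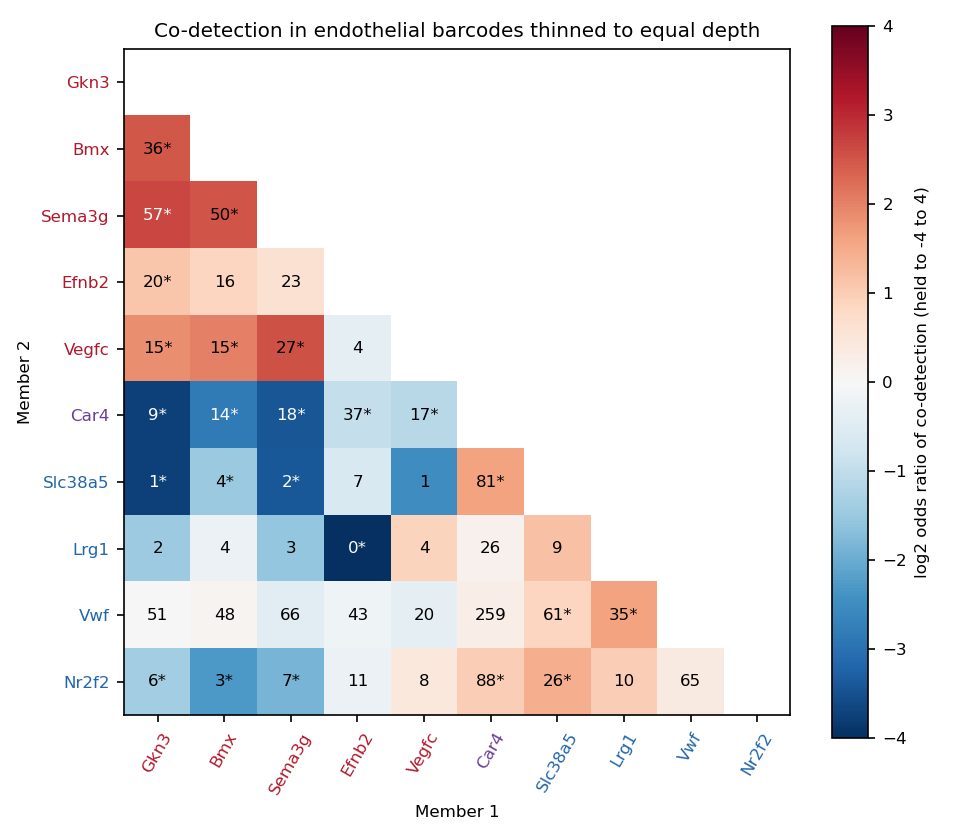
Co-detection of the 45 pairs of genes in 1330 endothelial barcodes thinned to 2000 UMIs; colour is the log2 odds ratio, each number counts the barcodes with both genes, and a star marks an interval wholly on one side of 1. The red block at the top left holds the arterial pairs, the darkest blue cells Car4 or Slc38a5 with Gkn3 and Sema3g and the pair of Efnb2 and Lrg1 with 0 barcodes, and the pale cells in the Vwf row its pairs with arterial genes.

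Few barcodes held several genes of both the arterial and the venous kind. Of the 1330 barcodes, 152 (11.4%) had at least 2 arterial genes and 143 (10.8%) at least 2 venous genes. There were 0 with both, where the product of those shares gives 16.3 barcodes. A count of 3 barcodes would be 0.226%, and the interval of the share reaches 0.277%. A second seed gave 2 such barcodes, 4000 UMIs gave 9 of 587 (34.5 from the shares), and without thinning there were 25 of 1521 (65.0). One arterial and one venous gene or more were together in 169 (12.7%), and 46 (3.46%) had genes of all 3 kinds. No member was seen in 206 (15.5%). Car4 was in 51.9% of the 428 barcodes with neither arterial nor venous genes and in 62.9% of the 377 with 1 venous gene only. It was in 21.2% of the 151 with 1 arterial gene only and in 10.5% of the 57 with 2 arterial genes only. With 1 arterial and 1 venous gene it was in 38.0% of 79, and with 1 arterial and 2 venous genes in 10 of 15. With 2 arterial and 1 venous gene it was in 2 of 44.

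**Figure D3:**
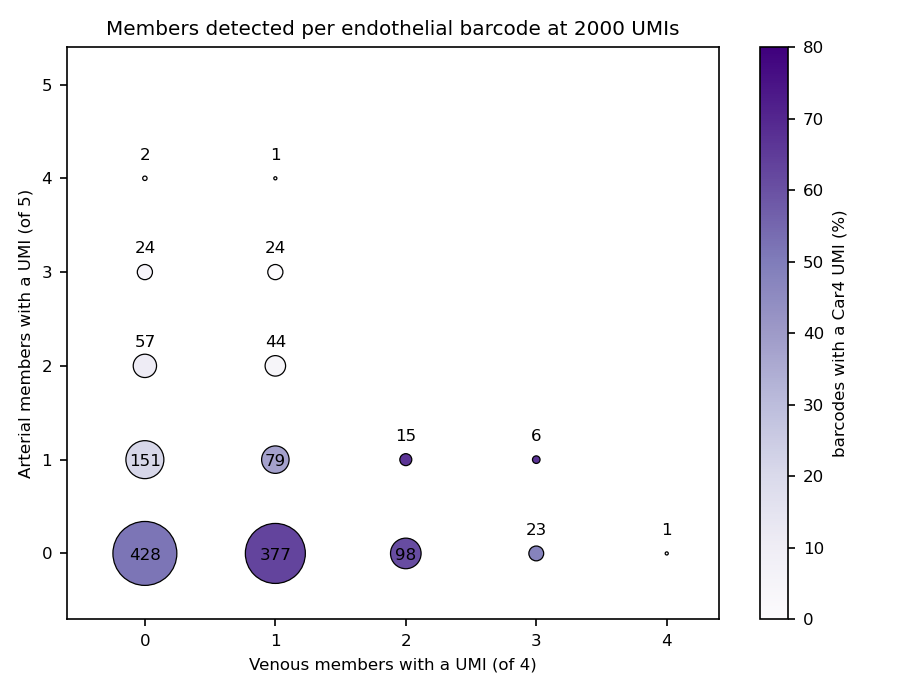
Number of arterial genes (of 5, vertical axis) and venous genes (of 4, horizontal axis) with a UMI in each of 1330 thinned endothelial barcodes; circle area and number give the barcodes and colour the share with a Car4 UMI. No circle lies at 2 or more on both axes, and the circles pale from 51.9% with Car4 at the origin to 10.5% at 2 arterial and 0 venous genes. At 1 arterial gene they darken from 21.2% at 0 venous genes to 66.7% at 2 and at 3, where few barcodes lie.

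Markers of cells that wrap vessels moved with some members. Gkn3-positive barcodes held 0.559 smooth muscle UMIs each after thinning against 0.0881 in the others, a ratio of 6.34 (4.63 to 8.65). For Sema3g the ratio was 2.26 and for Bmx 0.500 (0.212 to 1.01). For Car4 it was 0.174 and for Slc38a5 0.0600. Pericyte UMIs were more frequent with Nr2f2 (2.57 times), Vegfc (2.16, 1.59 to 2.88), Gkn3 (2.05, 1.64 to 2.54) and Sema3g (1.84). Fibroblast UMIs were so with Gkn3 (10.2), Efnb2 (9.72) and Nr2f2 (7.65). Before thinning, however, 1 endothelial barcode held 73 of the 114 fibroblast UMIs, and only 3 barcodes held 3 or more. Fibroblast UMIs are thus not independent counts, and these ratios are not read as traits of the genes. The part of all these markers in the results below was not tested. Without the Myh11-led cluster and the called doublets, a choice made after the data were seen, the arterial pairs stood at 2.40 times the product of shares and the odds ratio of Car4 with any arterial gene at 0.145. Without the barcodes of 3 or more pericyte or smooth muscle UMIs those values were 2.59 and 0.172. With all barcodes kept they were 2.43 (2.15 to 2.75) and 0.200 (0.151 to 0.265). The value of 0.145 lay outside that interval and the others lay within theirs.

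The members were next set against other genes of the vessel lists, none of them members. Among 136 pairs of a member with a gene of its own vessel kind, 99 (72.8%) had an interval wholly above 1 and 1 below. Among 254 pairs with a gene of another kind, 15 (5.91%) lay above and 100 below (39.4%). Over all genes, 3.52% of pairs with a member lay above 1 and 2.81% below. Members and lists were chosen with earlier results of these data known, so nothing is read from these differences.

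Of 23 further arterial genes, 19 were seen in at least 1% of barcodes. Sema3g was above 1 with 18 of the 19 (5.34% of 9827 genes were), Bmx with 18 (3.62%), Gkn3 with 17 (4.82%), Vegfc with 11 (2.41%) and Efnb2 with 7 (2.27%). The median log2 odds ratio over the list was 1.60 for Gkn3 and 0.53 for Efnb2, against 0.03 and 0.06 over all genes. Mgp, which encodes a matrix protein that blocks calcification, was in 50.4% of Gkn3-positive barcodes and in 7.65% of the others (odds ratio 12.2, 7.98 to 18.8). Gja4, a gap junction protein of arterial endothelium, was in 14.2% against 0.914% (17.8, 7.74 to 42.9), and Fbln2, a matrix fibulin, in 29.1% against 3.41%.

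The Notch target Hey1 was with Efnb2 at an odds ratio of 2.54 (1.49 to 4.21), and the netrin receptor gene Unc5b with Efnb2 at 2.80 (1.43 to 5.22). The Notch ligand gene Dll4 with Gkn3 spanned 1 (1.40, 0.826 to 2.29). Car4 was below 1 with 17 of the 19 arterial genes (6.05% of all genes were), Slc38a5 with 10 (1.9%), Vwf with 7 (3.7%), Lrg1 with 6 (1.46%) and Nr2f2 with 6 (2.09%). Hey1 was below 1 with each of these 5, at odds ratios of 0.205 for Car4, 0.216 for Slc38a5, 0.464 for Vwf, 0.161 for Lrg1 and 0.287 for Nr2f2. Vwf was above 1 with 1 arterial gene, Eln, which encodes elastin (1.54, 1.02 to 2.32).

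Of 13 capillary genes, Car4 was above 1 with 10 (5.31% of all genes were) and below with 1. Hmcn1, an extracellular matrix protein gene, was in 56.9% of Car4-positive barcodes and in 33.0% of the others (odds ratio 2.68, 2.13 to 3.37), and Slc7a5, the large neutral amino acid transporter, in 88.8% against 75.7%. The chemokine gene Cxcl12 was the one below 1, at 0.547 (0.422 to 0.707). Cxcl12 was also below 1 with each venous gene, from 0.223 for Lrg1 to 0.374 for Vwf. Slc38a5 was above 1 with 5 capillary genes (2.49% of all genes were), among them the transferrin receptor gene Tfrc at 2.31 (1.54 to 3.48).

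Of 65 pairs of an arterial gene with a capillary gene, 31 lay below 1 (47.7%) and 4 above. Below 1 were Vegfc with 9 of 13 (1.32% of all genes were), Gkn3 with 8 (3.81%), Sema3g with 8 (3.62%), Bmx with 6 (2.45%) and Efnb2 with 0 (1.67%). Tfrc was in 8.66% of Gkn3-positive barcodes against 42.7% of the others. Lrg1 was below 1 with 4 capillary genes, among them Mfsd2a, the lipid transporter of the blood-brain barrier (0.267, 0.108 to 0.578). Mfsd2a spanned 1 with Car4 (1.16, 0.928 to 1.46).

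Of 11 venous genes 7 were seen often enough. Vwf was above 1 with 5 of the 7 (4.26% of all genes were), Nr2f2 with 5 (2.25%), Lrg1 with 4 (2.41%) and Slc38a5 with 4, and Car4 was above 1 with 4 as well. Il1r1, the interleukin-1 receptor, was in 69.8% of Lrg1-positive barcodes against 25.1% of the others (odds ratio 6.87, 3.67 to 13.4), and in 53.5% of Nr2f2-positive barcodes against 23.7%. Ephb4, the receptor of ephrin-B2, was above 1 with Nr2f2 (2.35, 1.48 to 3.66) and Vwf (1.69, 1.21 to 2.38). Tmsb10, an actin-binding thymosin, was in 98.3% of Slc38a5-positive barcodes against 66.9% of the others, in 90.1% of Car4-positive barcodes against 52.0%, and in 25.9% of Sema3g-positive barcodes against 77.0%. Gkn3, Bmx and Sema3g were each below 1 with 4 venous genes, Efnb2 with 2 and Vegfc with 1.

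**Figure D4:**
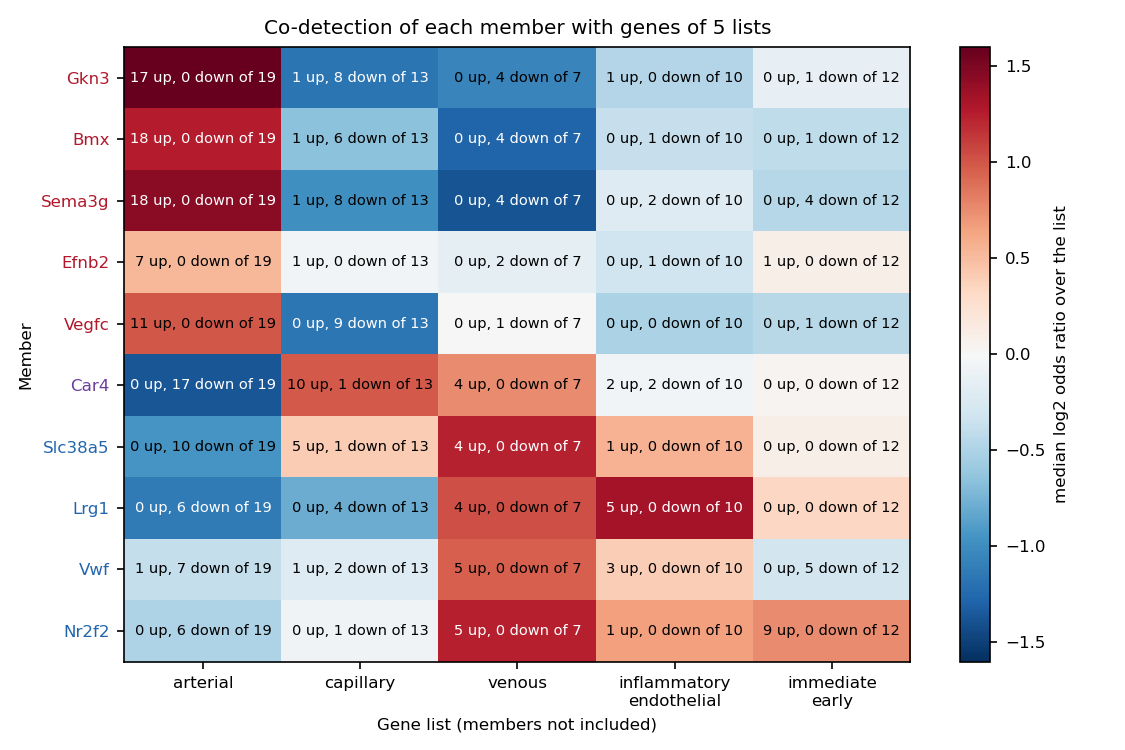
Co-detection of each of the 10 genes (vertical axis) with genes of 5 lists that hold no member (horizontal axis); colour is the median log2 odds ratio over the list, and the numbers say how many listed genes had an interval above 1 (up) or below 1 (down). Arterial genes are red in the arterial column, with 17 and 18 of 19 up for Gkn3, Bmx and Sema3g, and Car4 is blue there with 17 down.

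Of 10 inflammatory endothelial genes, Lrg1 was above 1 with 5 (2.41% of all genes were), Vwf with 3 (4.26%), and Slc38a5 (2.49%) and Nr2f2 (2.25%) with 1 each. This was not confined to venous genes. Car4 was above 1 with 2 (5.31%) and below with 2 (6.05%), and Gkn3 was above 1 with 1 (4.82%). Lcn2, the acute-phase protein lipocalin, was in 20.8% of Lrg1-positive barcodes against 2.11% of the others (odds ratio 12.1, 5.05 to 27.2), and Vcam1, a leukocyte adhesion molecule, in 47.2% against 9.24% (8.74, 4.72 to 16.1). Vcam1 was also with Vwf, in 17.5% against 6.25%. Without the Myh11-led cluster and called doublets the counts above 1 were 3 for Lrg1, 4 for Vwf, 2 for Slc38a5 and 4 for Nr2f2. The order of the venous genes by that count thus changed. For Car4 the count was then 1 and for Gkn3 0. Lrg1-positive barcodes had a median of 4514 UMIs before thinning, against 3757 in the others.

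Immediate early genes, which respond quickly to stimulation of a cell, went with Nr2f2. It was above 1 with 9 of 12 (2.25% of all genes were), including Egr1 in 67.4% of Nr2f2-positive barcodes against 48.7% (odds ratio 2.17, 1.49 to 3.20) and Jun in 93.1% against 85.1%. Vwf was below 1 with 5 of the 12 (3.7% of all genes were), such as Fos at 0.699 (0.546 to 0.896), and Sema3g with 4 (3.62%). Nr2f2-positive barcodes also held more pericyte UMIs, 0.958 each against 0.373, and had a median depth before thinning of 4350.5 UMIs against 3741. Without the Myh11-led cluster and doublets, Nr2f2 was above 1 with 8 of the 12, and Vwf and Sema3g were below 1 with 3 each. The part of depth and of pericyte RNA in these values was not tested.

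For each member the genes most like it in detection were found by the phi coefficient, a correlation of presence over the 1330 barcodes, which share a library and a depth. For Gkn3 they were Mgp (0.390), Igfbp3 (0.341) and Fbln2 (0.322). For Sema3g they were Mgp (0.301), Alpl (0.286) and Stmn2 (0.275), and Bmx had the same 3 at 0.237, 0.236 and 0.206. Mgp also led for Vegfc (0.208). Efnb2 had no gene above 0.157, the value of Igfbp3.

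Car4 was most like Tmsb10 (0.413), Ctla2a (0.334) and Fmo2 (0.303). Il1r1 was among the first 3 of each venous gene, at 0.233 for Vwf, 0.209 for Nr2f2, 0.197 for Lrg1 and 0.187 for Slc38a5. Lrg1 was most like Vcam1 (0.240) and Lcn2 (0.219). Fmo2 was second for Nr2f2 (0.199), and Tmsb10 was first for Slc38a5 (0.192).

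The last view came from clusters built without the members or any listed gene. At the finer resolution, 6 clusters of endothelial barcodes held between 150 and 349 each. Gkn3 stood at 425 CPM (373 to 483) in cluster 9 and 298 CPM in cluster 1, and at most 11.2 CPM in the other 4. Sema3g was at 372 and 199 CPM in those clusters and at most 33.7 CPM elsewhere, and Bmx at 244 and 120 CPM and at most 15.9. Efnb2 (124 and 84.1 CPM) and Vegfc (74.1 and 29.7 CPM) were highest in clusters 9 and 1 too, but Efnb2 kept 17.5 to 31.9 CPM in the other 4.

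Car4 was highest in cluster 0 (899 CPM), lay between 553 and 650 CPM in clusters 22, 2 and 6, and stood at 113 CPM in cluster 1 and 47.7 CPM in cluster 9. Slc38a5 went with it, at 76.8 to 105 CPM in those 4 clusters and 10.9 and 3.53 CPM in clusters 1 and 9. Lrg1 and Nr2f2 peaked in cluster 2, at 116 CPM (99.1 to 135) and 207 CPM (184 to 232), and Lrg1 was at 36.8 CPM in cluster 22, the next. Vwf reached 558 CPM in cluster 2 and 491 CPM in cluster 22, yet 339 CPM (293 to 390) in cluster 9 against 141 CPM in cluster 1. The 2 clusters richest in arterial genes thus differed in Vwf beyond counting error. They also differed in red cell RNA: 4 haemoglobin genes (Hbb-bt, Hbb-bs, Hba-a1 and Hba-a2) were among the 10 leading genes of cluster 1 and summed to 970 CPM there, against 19.4 CPM in cluster 9. Red cell RNA was not particular to cluster 1: the 4 genes summed to 1129 CPM in cluster 0 and 615 CPM in cluster 6. In clusters 22 and 2 they summed to 196 and 113 CPM. Vwf stood at 200 CPM in cluster 0 and 249 CPM in cluster 6. The part of red cell RNA in these levels was not tested. A cluster of 27 cells with 8 of 8 pericyte markers, of which 17 were among the endothelial barcodes, had 363 CPM of Nr2f2 and 197 CPM of Gkn3.

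**Figure D5:**
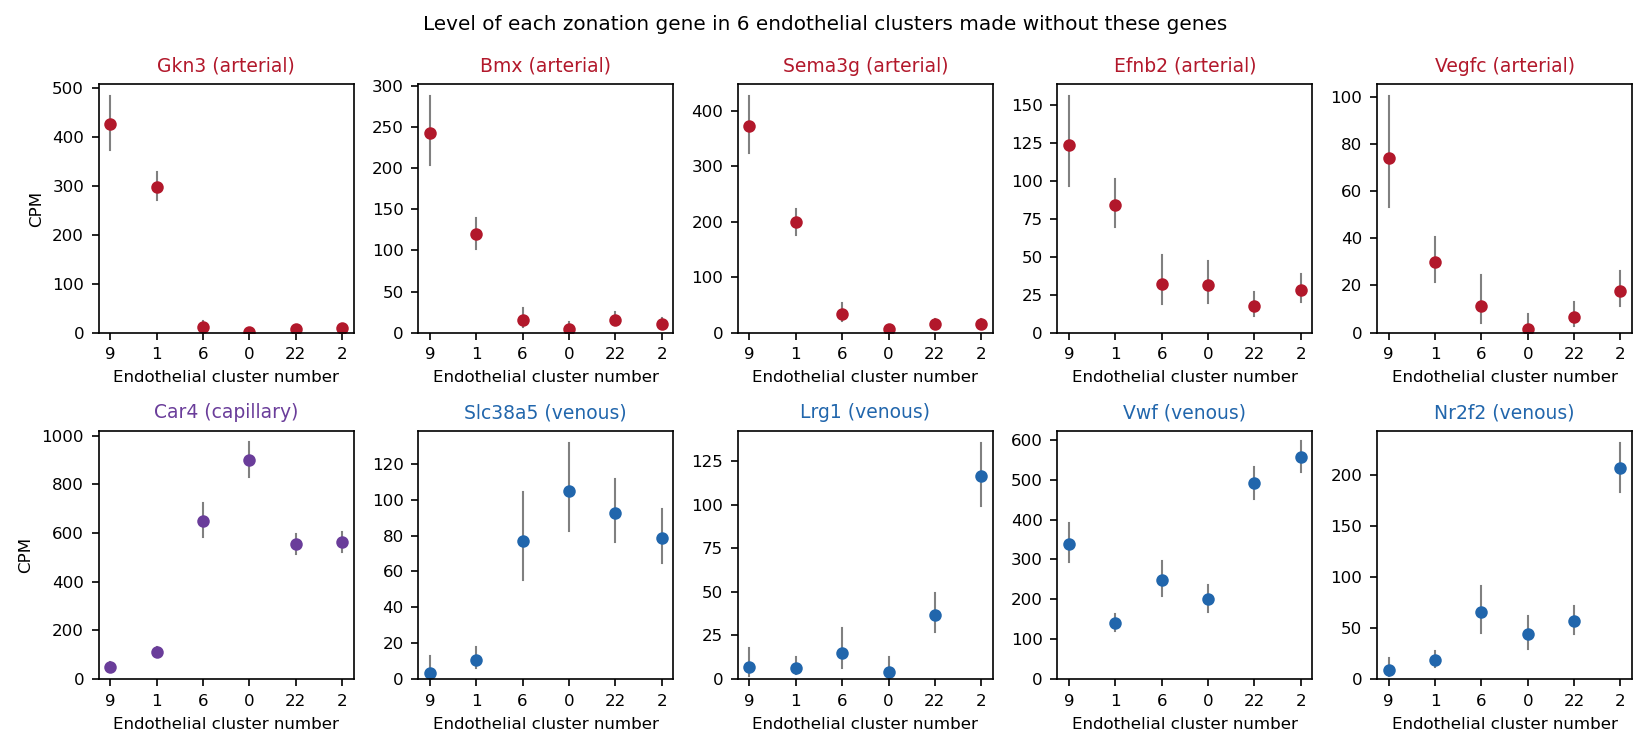
Level of each gene in CPM (linear axis from 0, a scale for each panel) in 6 endothelial clusters numbered on the horizontal axis, with exact Poisson intervals as lines; clusters were built without these genes. The arterial genes are high in clusters 9 and 1, Car4 and Slc38a5 are high in the other 4, Lrg1 and Nr2f2 peak in cluster 2, and Vwf is high in clusters 2, 22 and 9.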

How the data were processed

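The deposited matrix holds counts: whole UMI counts per gene and barcode, which, per the submitters' processing notes, the authors made with Cell Ranger 8.0.1 against build GRCm39. No version of the annotation is given in the sources. Genes and lists were chosen with earlier results of these data known. Totals ran from 500.0 to 42440 UMIs over 6672 barcodes. UMI counts from the 3′ end carry no length scale, so levels are compared within a gene, as CPM (UMIs of the gene over all UMIs of the class). Intervals are Clopper-Pearson for shares, Poisson for levels, and exact conditional for odds ratios and ratios.

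Barcodes with at least 500 genes and at most 15% mitochondrial UMIs were clustered with the members and listed genes left out (2000 variable genes, 30 principal components, 15 neighbours, Leiden resolution 1, and 2 for finer clusters). Scrublet at a rate of 0.05 called 261 doublets, which were left out of the clusters. The stated endothelial choice does not use that call. A cluster took a class when at least 3 of its markers had at least 20 CPM, 4 times the median cluster and 25% of the highest cluster, and stayed unnamed where its leading genes went against it. That rule was written with the clusters in view.

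The text names the 10 members, the 3 genes of highest phi with each among genes in at least 2% of thinned barcodes, and up to 4 genes per list and member whose interval excluded 1. Dll4 with Gkn3, Mfsd2a with Car4, Eln and Fos with Vwf, Hey1 and Cxcl12 across members, the haemoglobin genes, and the clusters named for Efnb2 and Nr2f2 were added after their values were seen. On simulated data for a gene in 10% of barcodes, intervals lay above 1 for 99% of 100 genes set to an odds ratio of 4, 62% of 100 set to 2 and 1.70% of 8950 unrelated genes. Versions were scanpy 1.11.5 and igraph 0.11.9 for clustering, scikit-learn 1.9.0, scipy 1.17.1 for intervals, numpy 2.4.6, pandas 2.3.3 and matplotlib 3.10.9 under Python 3.11.15. Alternatives varied the depth and seed of thinning, the limits of the cell choice, doublets, barcodes with mural UMIs, the place of Slc38a5 and Vwf, the weighing of cells, the resolution and the share of barcodes a gene needs. A count of 0 is given with the level that 3 counts would make.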

Additional observations from a re-analysis of the deposited data

How the results depend on the processing

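Of 113 values under alternatives, 96 were counted as the same and 17 as moved. A value with a counting interval was the same when it stayed within that interval. The counts of classes and of list pairs have no such interval. Of the ratios, 0 changed sides of 1, which levels and counts cannot do. Single pairs of genes are not among the 113. Each choice of cells was thinned afresh, so part of each move comes from the draw. At 1000 UMIs the arterial pairs stood at 2.82, the venous pairs at 1.79 and Car4 with any venous gene at an odds ratio of 1.31. At 4000 UMIs any arterial with any venous gene stood at 0.409. Without thinning the venous pairs stood at 1.61. A second seed gave 0.146 for Car4 with any arterial gene and 1.38 with any venous gene. With at least 20 UMIs of the 4 endothelial genes, arterial with venous was 0.460 and Car4 with arterial 0.147. With C1q of at most 3 and Ttr of at most 5 UMIs the venous pairs stood at 1.61. Leaving out Slc38a5, counted as the same, gave 0.688 for arterial with venous, 1.31 for venous pairs and 1.39 for Car4 with venous. Among choices added after the data were seen, leaving out the Myh11-led cluster and doublets gave 0.145 for Car4 with arterial genes, and leaving out Vwf gave 0.435 for arterial with venous, 1.98 for venous pairs and 2.50 for Car4 with venous. The cause was not tested. With cells weighed equally the endothelial levels of Gkn3, Lrg1 and Nr2f2 were 125, 28.0 and 70.4 CPM. Of all 40 endothelial levels under alternatives, 37 stayed within their interval. Among them, the levels of the 10 genes at the finer resolution use the same endothelial barcodes and could not move. Endothelium was the highest class for 8 or 9 of 10 genes, and own-kind list pairs above 1 numbered 92 to 99. Without thinning the share of barcodes with a UMI was higher for each of the 10 genes, so absence from a thinned barcode is not absence from a cell. No paired analysis was possible because the library stands alone.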

Other observations

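The list of fenestrated choroid plexus endothelium had 5 genes, of which 3 were measured. Of these Igfbp3, a binding protein of insulin-like growth factors, was in 36.2% of Gkn3-positive barcodes against 4.90% of the others (odds ratio interval 6.84 to 17.6). It was above 1 with Sema3g (5.98), Vegfc (6.70), Bmx (4.46) and Efnb2 (3.89) as well, and below 1 with Car4 (0.120) and Slc38a5 (0.0938). For Sema3g, Vegfc, Bmx and Efnb2 it was the only gene of the list above 1. Igfbp3 was also among the leading genes of cluster 9, rich in arterial genes, so its values do not speak for the list as a whole. Plpp1, a lipid phosphatase, was above 1 with Gkn3 (2.05) and below with Vwf (0.499); without the Myh11-led cluster and doublets Gkn3 was above 1 with 1 gene of the list and Vwf below 1 with 0. Of 3 measured tip cell genes, Adm, the vasodilator peptide adrenomedullin, was above 1 with Car4 (1.98, 1.26 to 3.16) and below with Sema3g (0.321). With Gkn3 it stood at 0.303, and without that cluster and the doublets Gkn3 was below 1 with 0 tip cell genes.

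Efnb2 in microglia was not even: its level was 16.1 CPM (11.3 to 22.2) in cluster 7, led by Slc2a5 and Csmd3, against 4.05 CPM (2.31 to 6.58) in cluster 4. Nr2f2 in neurons stood at 660 CPM (497 to 859) in the 20 cells of cluster 17, led by Lhx5 and Lhx1, and at 131 CPM (62.7 to 240) in the 13 cells of cluster 9 of the coarser clustering, led by Neurod1 and Dcx. Lhx1 and Lhx5 are LIM homeodomain factors and Dcx is a mark of immature neurons.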
